A study of Mus musculus with 4 samples.

Results

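Ociad1, Ube2v2, Anp32a, Rit1, Slc25a25, Dmd and Tsr3 are 7 of the 14949 genes counted by Nanopore long-read sequencing in mouse neural stem cells with and without deletion of Tut1. They were chosen from the readout itself. In 5 of them an isoform's share of the gene's reads had moved the same way in both comparisons of Tut1 status. Ube2v2 and Rit1 were taken because their alternative exons were assayed by qPCR in the study. The table listed 54 isoforms of these genes, and the 45 with 10 or more reads over the 4 libraries are described here. The weakest isoform inside that limit had 10 reads and the strongest outside it, of Dmd, had 9.

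The cells were primary neural stem cells derived from neocortices of E12.5 floxed embryos and grown as neurospheres, with 1 library per genotype. The control was Tut1f/f cells given empty lipid nanoparticles (LNP). Nanoparticles carrying Cre mRNA were given to Tut1f/f cells (Tut1f/f;Cre, TKO below), to cells floxed for Trp53 (Trp53f/f;Cre, labelled PKO below) and to cells floxed for both genes (Tut1f/f;Trp53f/f;Cre, labelled DKO below; the sample labels write p53f/f). All were treated for 3 days. The control thus differed from the other libraries in Cre as well as in genotype, and the floxed alleles also differed between cultures. The Tut1 comparisons, TKO against the control and DKO against PKO, share no library. With 1 library in each group they compare libraries rather than replicated conditions.

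Tut1 encodes the uridylyltransferase that adds the oligo(U) tail to U6, a small nuclear RNA in the catalytic core of the spliceosome. During splicing, U6 snRNA base-pairs with the donor, the first bases of the intron, in place of U1 snRNA. Isoforms of a gene can differ by alternative donors or acceptors, skipped exons, alternative first exons and introns left in the transcript, among other ways, and each of these occurs among the 7 genes.

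The libraries held 2863392 to 4244467 reads assigned to genes. Tut1 itself had 37 reads in the control, 11 in TKO, 14 in the library labelled PKO and 27 in that labelled DKO, so the total ran against the labels in the second comparison. The loxP-flanked part is exon 2 alone, and the gene total does not measure its loss. Trp53 had 175, 67, 10 and 19 reads in the same order. Xist was read only in TKO (44 reads) and the library labelled PKO (49), and Ddx3y, Kdm5d, Eif2s3y and Uty only in the control and the library labelled DKO, so that the Tut1 comparisons run in opposite directions across the sex-linked genes. Gene levels in TKO differed at least 2-fold from the control for 27.0% of 9848 genes, against 8.78% between those labelled DKO and PKO. All 9 neural stem cell markers were read in each library, with a summed level between 11590 and 13389 CPM, gene reads scaled to a common library size with TMM factors. Most of that sum was Fabp7, and others differed between the control and the libraries with Cre, such as Hes1 at 149 against 452 to 500 CPM, Nes at 140 against 199 to 306 and Vim at 1265 against 619 to 758. The 4 microglial and 3 endothelial markers had no read, and the 3 muscle markers, which matter for Dmd, summed to at most 0.330 CPM. Neuronal markers summed to 67.4 to 84.7 CPM with Rbfox3 at 0 in all, and those of the oligodendrocyte lineage to 284 to 589 CPM. Astrocyte markers summed to 49.5, 11.9, 6.89 and 31.5 CPM, with Gfap at 0 in all, and among fibroblast and pericyte markers a single Col1a1 read was found. Whether these differences between libraries bear on the results was not tested.

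Of the 45 isoforms, 20 were listed under an Ensembl transcript, 7 under a transcript name with a suffix, called variants here, and 18 under the name of a read, with no structure given. Usage below is an isoform's percentage of all reads of its gene in a library. Its 95% interval is Wilson's, and that of a difference in percentage points is Newcombe's. These intervals treat reads as independent draws and cover counting error only. The reads come from PCR-amplified cDNA without molecular identifiers, so the intervals may be too narrow. The spread between cultures is unknown. The lead isoform of a gene is the one that moved the same way in both Tut1 comparisons with the largest smaller difference. Because the genes were chosen on the Tut1 comparisons, their differences there are descriptions and carry no test.

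Ociad1 (chromosome 5, GRCm38) encodes a membrane protein of mitochondria and endosomes with an OCIA domain. Its switch joined a longer exon 7 to the loss of exon 8. The main isoform, ENSMUST00000031038, has 9 exons and 247 codons. In ENSMUST00000071081, exon 7 ends 45 bases further downstream and exon 8 is spliced out. A stop codon lies in the added bases, which leaves 189 codons. From the GENCODE M21 transcripts, which give all sequences here, the end of exon 7 is shown with the extension as far as that stop codon in capitals (chr5:73306742-73306770, plus strand), followed by exon 8 of the main isoform in capitals throughout (chr5:73310274-73310426, plus strand).
Ociad1 exon 7 and extension: atattgcccaagGTAGAAACTTCTCTTGA
Ociad1 exon 8: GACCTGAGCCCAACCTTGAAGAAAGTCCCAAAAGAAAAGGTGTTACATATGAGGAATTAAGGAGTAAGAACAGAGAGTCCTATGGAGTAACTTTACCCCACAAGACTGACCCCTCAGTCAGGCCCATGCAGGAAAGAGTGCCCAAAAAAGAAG

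The shorter Ociad1 isoform made up 14.5% of the gene's reads in the control (108 of 746, interval 12.1 to 17.2) and 30.2% in TKO (119 of 394, 25.9 to 34.9). It made up 12.6% in the library labelled PKO (47 of 374, 9.6 to 16.3) and 29.6% in that labelled DKO (149 of 503, 25.8 to 33.8). Both libraries labelled as lacking Tut1 were high and the other pair low, with intervals that did not overlap. The differences were 15.7 points (10.6 to 20.98) and 17.1 points (11.7 to 22.2). The main isoform ran the other way, from 59.1% to 43.7% and from 63.6% to 45.1%.

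The events could be counted apart from each other. Among isoforms with an Ensembl name and a known structure, exon 8 was included in 80.0% of reads in the control (441 of 551), 58.9% in TKO (172 of 292), 82.6% in the library labelled PKO (238 of 288) and 59.7% in that labelled DKO (227 of 380). The extended exon 7 was thus almost tied to skipping. Of the reads that skipped exon 8, between 94.0% and 99.2% carried the extension in each library, and ENSMUST00000200935, which skips exon 8 from the usual donor, had 10 reads in all. Another isoform with the extended exon, ENSMUST00000166823, does not splice at that donor but runs on into the intron. Its usage was 1.5%, 4.6%, 1.6% and 3.6% in the order above, low in the same libraries as that of the shorter isoform. Isoforms of Ociad1 named by a read together held 23.7%, 20.1%, 20.6% and 20.3% of the reads, so the share without a known structure differed little between the libraries.

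Ube2v2 (chromosome 16) encodes a ubiquitin-conjugating enzyme variant that has no active site of its own and works with Ube2n, the enzyme that builds the ubiquitin chains of DNA damage tolerance. Its switch was a cassette exon. ENSMUST00000115777 (4 exons, 145 codons) contains exon 3, and ENSMUST00000115776 (3 exons, 103 codons) skips it. The exon has 126 bases, all coding, so skipping removes 42 codons without a shift of frame. The primers that the study lists for its alternative exon assay of Ube2v2 lie within these bases (chr16:15577015-15577140, minus strand, capitals throughout).
Ube2v2 exon 3: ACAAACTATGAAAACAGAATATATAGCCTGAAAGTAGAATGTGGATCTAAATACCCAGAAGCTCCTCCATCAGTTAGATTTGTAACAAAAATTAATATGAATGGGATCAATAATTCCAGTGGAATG

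**Figure D1:**
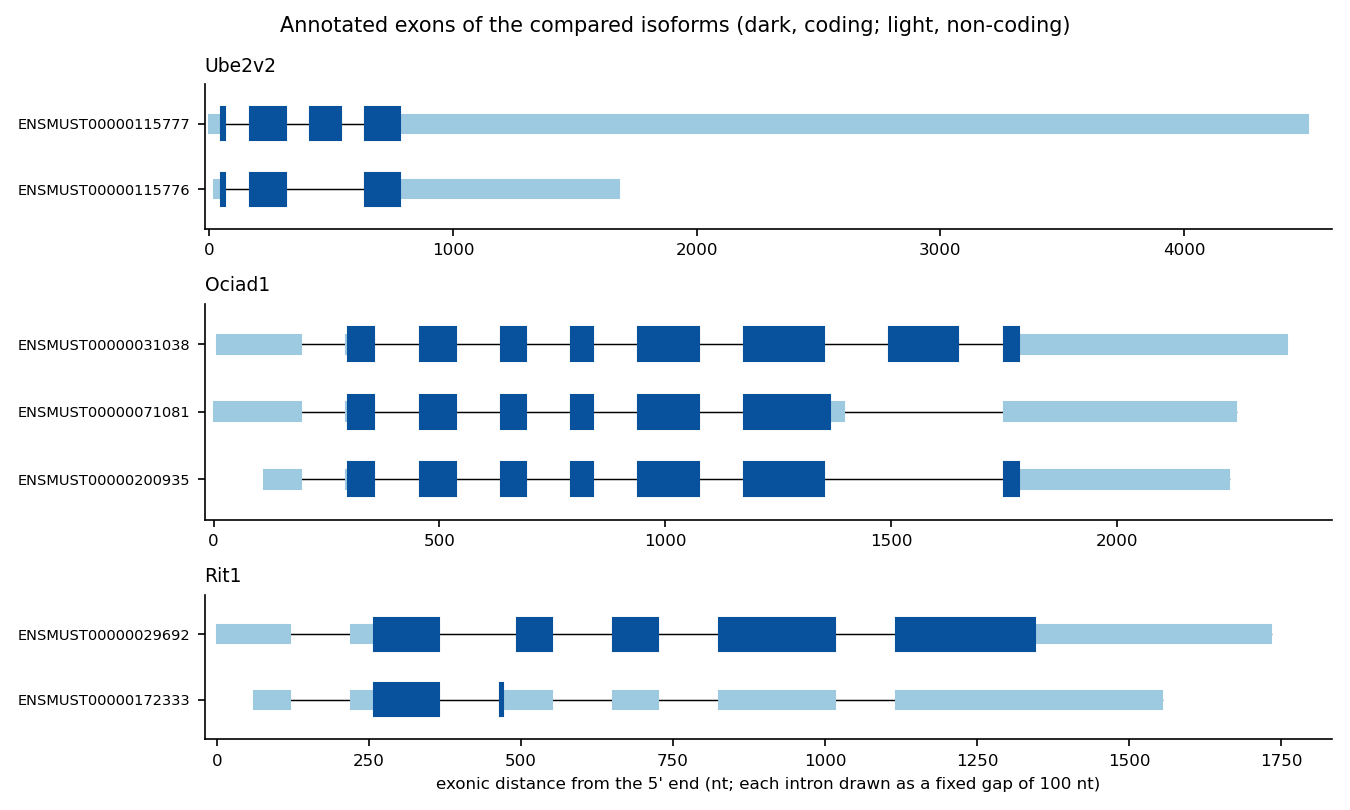
Annotated exons of the compared isoforms of Ube2v2, Ociad1 and Rit1, drawn to scale along the transcript from its 5′ end in nucleotides, with every intron as a fixed gap. Dark boxes are coding and light boxes non-coding. Exon 3 of Ube2v2 is absent from the lower isoform, exon 7 of Ociad1 is longer and exon 8 absent in ENSMUST00000071081, and exon 3 of Rit1 begins earlier in ENSMUST00000172333.

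The isoform with exon 3 made up 58.5% of Ube2v2 reads in the control (226 of 386, interval 53.6 to 63.4) and 44.6% in TKO (119 of 267, 38.7 to 50.6). In the libraries labelled PKO and DKO it made up 65.3% (192 of 294, 59.7 to 70.5) and 46.5% (140 of 301, 41.0 to 52.2). It was lower in both libraries labelled as lacking Tut1, without overlap of the intervals, with differences of -14.0 points (-21.5 to -6.2) and -18.8 points (-26.4 to -10.8). The skipping isoform was higher in the same libraries, at 19.4%, 30.7%, 15.3% and 30.2% in the order above.

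Counted as an exon, inclusion was 75.1% in the control (226 of 301 reads of these isoforms, interval 69.9 to 79.6), 59.2% in TKO (119 of 201, 52.3 to 65.8), 81.0% in the library labelled PKO (192 of 237, 75.5 to 85.5) and 60.6% in that labelled DKO (140 of 231, 54.2 to 66.7). Adding the 4 variants listed under these and related transcripts, an alternative chosen after the data were seen, gave 73.8%, 56.8%, 77.9% and 57.2%. The isoforms also differ in annotated length, 4207 against 1236 bases, mostly in the part after the stop codon. The read-weighted annotated length over all genes was 1738 bases in the control, 1671 in TKO, 1653 in the library labelled PKO and 1648 in that labelled DKO. Whether read length bears on the shares of these isoforms was not tested.

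**Figure D2:**
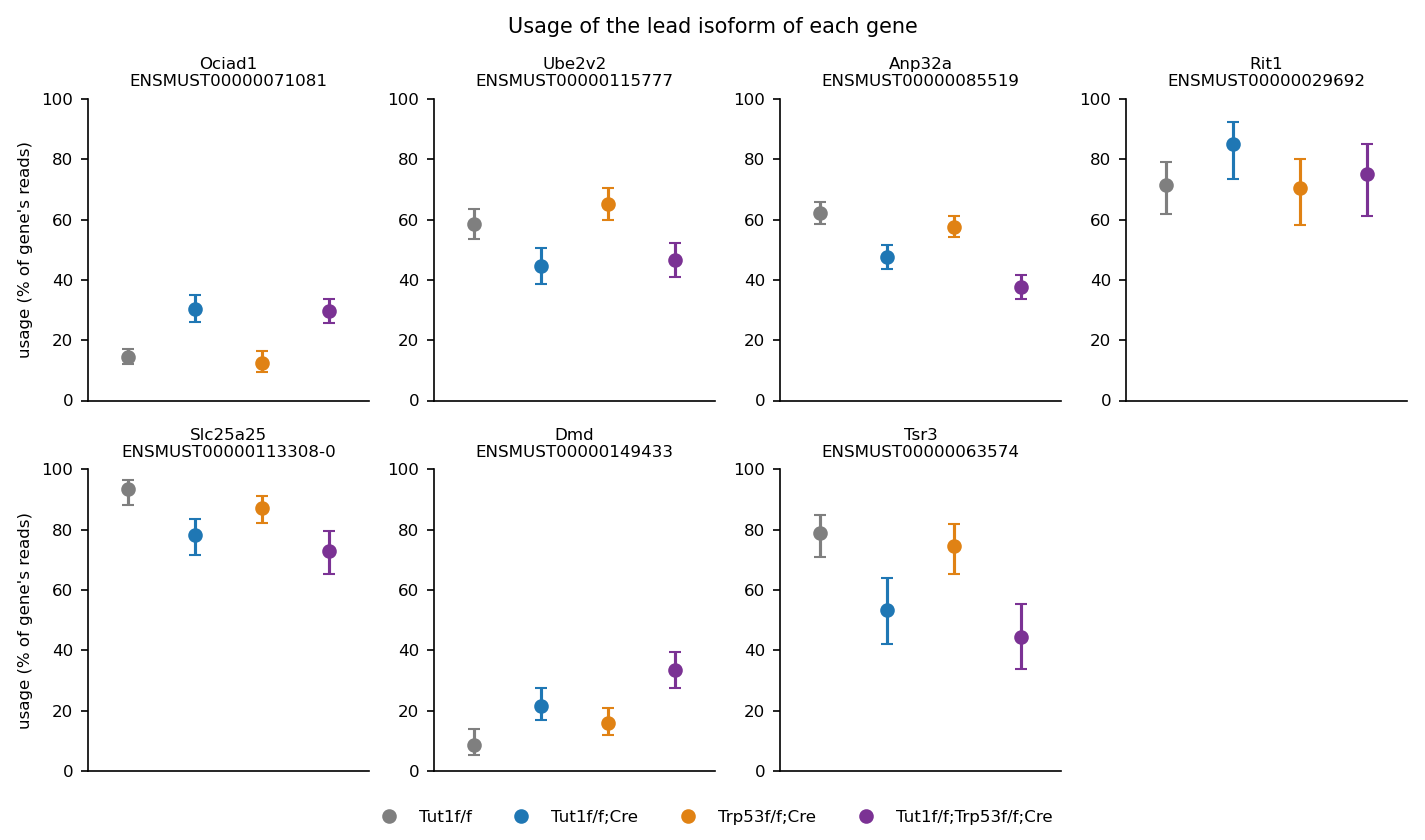
Usage of the lead isoform of each gene (percentage of the gene's reads, vertical axis) in the 4 libraries, 1 point per library with its Wilson 95% interval. For Ociad1 the points at 30.2% and 29.6% of the libraries labelled as lacking Tut1 lie above 14.5% and 12.6%, while for Rit1 all 4 intervals overlap.

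Rit1 (chromosome 3) encodes a small GTPase of the Ras family. Its exon 3 can begin at either of 2 acceptors, and the upstream one, used in ENSMUST00000172333, adds 29 bases that hold an in-frame stop codon. GENCODE classes that transcript as a target of nonsense-mediated decay. The added bases are shown in capitals, followed by the first bases that both isoforms share (chr3:88717573-88717610, plus strand), and the study's forward primer for the Rit1 alternative exon assay lies within the capitals.
Rit1 exon 3 with its extension: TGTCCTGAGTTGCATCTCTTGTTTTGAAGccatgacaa

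Rit1 was the thinnest of the 7 genes, with 48 to 101 reads per library. Its coding isoform ENSMUST00000029692 (219 codons) made up 71.3% of reads in the control (72 of 101, interval 61.8 to 79.2), 85.2% in TKO (46 of 54, 73.4 to 92.3), 70.3% in the library labelled PKO (45 of 64, 58.2 to 80.1) and 75% in that labelled DKO (36 of 48, 61.2 to 85.1). The differences of 13.9 points (-0.3 to 25.7) and 4.7 points (-12.2 to 20.4) lay within counting error. With isoforms named by a read left out of the total, the second was -0.43 points.

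The variant listed under the extended Rit1 transcript (ENSMUST00000172333-0) had 11 reads in the control, 2 in TKO, 6 in the library labelled PKO and 5 in that labelled DKO. Set against the coding isoform, these were 13.3%, 4.2%, 11.8% and 12.2%. The differences in the Tut1 comparisons, -9.1 points (-18.5 to 2.3) and 0.4 points (-13.1 to 15.2), differed in sign. The transcript without a suffix had no read, and the exons of the variant are not given in the table, so that these reads use the acceptor rests on the name alone. A change in the variant's share was not detectable at this depth in either comparison.

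Anp32a (chromosome 9) encodes an acidic leucine-rich nuclear phosphoprotein, an inhibitor of protein phosphatase 2A and of histone acetylation. Its isoforms differ in the first exon, and therefore in the annotated start of transcription and in the first codons. ENSMUST00000085519 and ENSMUST00000135395 also differ at the 3′ end and in annotated length, 2113 against 924 bases. Anp32a's read-weighted annotated length was 1865 bases in the control and 1711 in TKO. It was 1821 in the library labelled PKO and 1593 in that labelled DKO. Whether transcript or read length bears on the shares of these isoforms was not tested. ENSMUST00000085519 (247 codons) begins at the most upstream first exon, and ENSMUST00000135395 (233 codons) at one that adds few coding bases before the exons they share. The coding bases of the alternative first exons are shown, plus strand, with the first 3 coding bases in capitals (chr9:62341501-62341554, chr9:62341948-62342010 and chr9:62342240-62342251).
ENSMUST00000085519: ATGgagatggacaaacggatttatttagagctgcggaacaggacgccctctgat
ENSMUST00000128636: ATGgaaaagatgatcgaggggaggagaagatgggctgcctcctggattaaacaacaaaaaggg
ENSMUST00000135395: ATGaggcgagag

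The upstream isoform of Anp32a made up 62.3% of reads in the control (430 of 690, interval 58.6 to 65.9) and 47.6% in TKO (302 of 635, 43.7 to 51.4). In the libraries labelled PKO and DKO it made up 57.7% (448 of 777, 54.2 to 61.1) and 37.5% (216 of 576, 33.6 to 41.5). It was lower in both libraries labelled as lacking Tut1, with differences of -14.8 points (-19.99 to -9.4) and -20.2 points (-25.3 to -14.8). With isoforms named by a read left out of the total, the first was -9.7 points (-15.3 to -4.1). The library labelled DKO was lowest, with a difference from TKO of -10.1 points (-15.5 to -4.5).

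The remainder was shared by Anp32a isoforms with other annotated first exons, a variant listed under the upstream transcript, and isoforms named by a read. That variant, ENSMUST00000085519-0, stood at 5.2%, 2.4%, 3.6% and 3.0% in the order above. ENSMUST00000135395 stood at 11.9%, 19.2%, 13.3% and 21.7%, with differences of 7.3 points (3.4 to 11.3) and 8.4 points (4.4 to 12.6). The most read of the isoforms named by a read, whose exons the table does not give, stood at 8.1%, 13.1%, 10.2% and 15.6%. All isoforms of Anp32a named by a read together held 16.1%, 26.3%, 20.5% and 31.1%, higher in both libraries labelled as lacking Tut1. The other alternative first exons each had at most 4.0% in any library. As a share of reads with a known first exon, the upstream one had 80.7%, 67.3%, 76.8% and 58.1% in the same order.

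Tsr3 (chromosome 17) encodes the aminocarboxypropyltransferase that completes a modified base of small-subunit ribosomal RNA. It had the largest difference among the lead isoforms. Its only annotated isoform in the table, ENSMUST00000063574 (6 exons, 323 codons), made up 78.8% of reads in the control (104 of 132, interval 71.1 to 84.9) and 53.2% in TKO (41 of 77, 42.2 to 64.0). In the libraries labelled PKO and DKO it made up 74.5% (79 of 106, 65.5 to 81.9) and 44.3% (35 of 79, 33.9 to 55.3). Both libraries labelled as lacking Tut1 were low, without overlap, and the differences were -25.5 points (-38.2 to -12.3) and -30.2 points (-43.0 to -16.0). With isoforms named by a read left out of the total Tsr3 has a single isoform, and both differences were 0.

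The remaining Tsr3 reads belonged to 3 isoforms named by a read, each with a higher usage in the libraries labelled as lacking Tut1. Their usages were 12.1%, 18.2%, 12.3% and 27.8% for the first, 8.3%, 19.5%, 9.4% and 19.0% for the second, and 0.76%, 9.1%, 3.8% and 8.9% for the last. Their exons are not given in the table, so the kind of event cannot be named. Baiap3 overlaps Tsr3 on the opposite strand and had no read in any library, and no gene that overlaps another of the 7 had more than 2 reads in a library.

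Slc25a25 (chromosome 2) encodes a calcium-regulated mitochondrial carrier that exchanges ATP-Mg for phosphate. Most reads were counted under ENSMUST00000113308-0, a variant whose own exons the table does not give. The transcript it is named after, ENSMUST00000113308, has 10 exons and 489 codons. ENSMUST00000194756 is annotated as a retained intron: it is 1 unspliced block of 3821 bases that runs through exon 1 of the coding isoform and past its donor. The variant ENSMUST00000113308-0 made up 93.4% of reads in the control (141 of 151, interval 88.2 to 96.4), 78.2% in TKO (147 of 188, 71.8 to 83.5), 87.3% in the library labelled PKO (185 of 212, 82.1 to 91.1) and 73.1% in that labelled DKO (106 of 145, 65.4 to 79.7). The control and the library labelled PKO were higher, though the intervals of the latter and TKO overlapped. The differences were -15.2 points (-22.3 to -7.8) and -14.2 points (-22.8 to -5.8).

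The unspliced Slc25a25 isoform had 8 of 151 reads in the control (5.3%) and 36 of 188 in TKO (19.1%). It had 24 of 212 (11.3%) in the library labelled PKO and 36 of 145 (24.8%) in that labelled DKO. It was higher in both libraries labelled as lacking Tut1, by 13.9 points (6.9 to 20.6) and 13.5 points (5.5 to 21.9). Its level was 2.01, 11.9, 6.89 and 12.2 CPM. The library labelled PKO thus lay between the control and the others.

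Dmd (chromosome X) encodes dystrophin, the protein that links actin to the membrane complex of dystroglycan. Its promoters yield full-length and shortened products, and a short one is known from neural and other non-muscle cells. ENSMUST00000113991 (18 exons, 617 codons) is the coding isoform of that product. ENSMUST00000149433 begins with the same first exon and ends in the intron after its exon 9, and ENSMUST00000132333 in the intron after exon 7. Both are annotated as retained intron. The most read Dmd isoform was named by a read and has no given structure, with 41.8% to 54.4% of the gene's reads.

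ENSMUST00000149433 made up 8.8% of Dmd reads in the control (15 of 171, interval 5.4 to 14.0) and 21.7% in TKO (51 of 235, 16.9 to 27.4). It made up 15.8% in the library labelled PKO (39 of 247, 11.8 to 20.9) and 33.3% in that labelled DKO (79 of 237, 27.6 to 39.6). The differences were 12.9 points (5.9 to 19.6) and 17.5 points (9.9 to 25.0). With isoforms named by a read left out of the total, the first was 21.2 points (8.3 to 32.6). The intervals of TKO and the library labelled PKO overlapped, and the latter was 7.0 points (0.45 to 13.1) above the control.

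Other Dmd isoforms separated the control from the 3 libraries with Cre instead. The coding isoform had 32.2% of reads in the control and 9.8%, 6.1% and 6.8% in the others. Its difference was -22.4 points (-30.4 to -14.5) in the first Tut1 comparison and 0.68 points (-3.8 to 5.3) in the second. ENSMUST00000139998, a non-coding 3-exon transcript from an upstream part of the locus, stood at 4.1%, 19.6%, 19.8% and 15.2%. Among named isoforms from the short product's first exon, those that keep an intron were 21.4% of 70 reads in the control and 70.9%, 75.8% and 84.2% in the others. That share was thus low in the control alone, and the second Tut1 comparison, 8.4 points (-3.9 to 21.7), was within counting error.

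**Figure D3:**
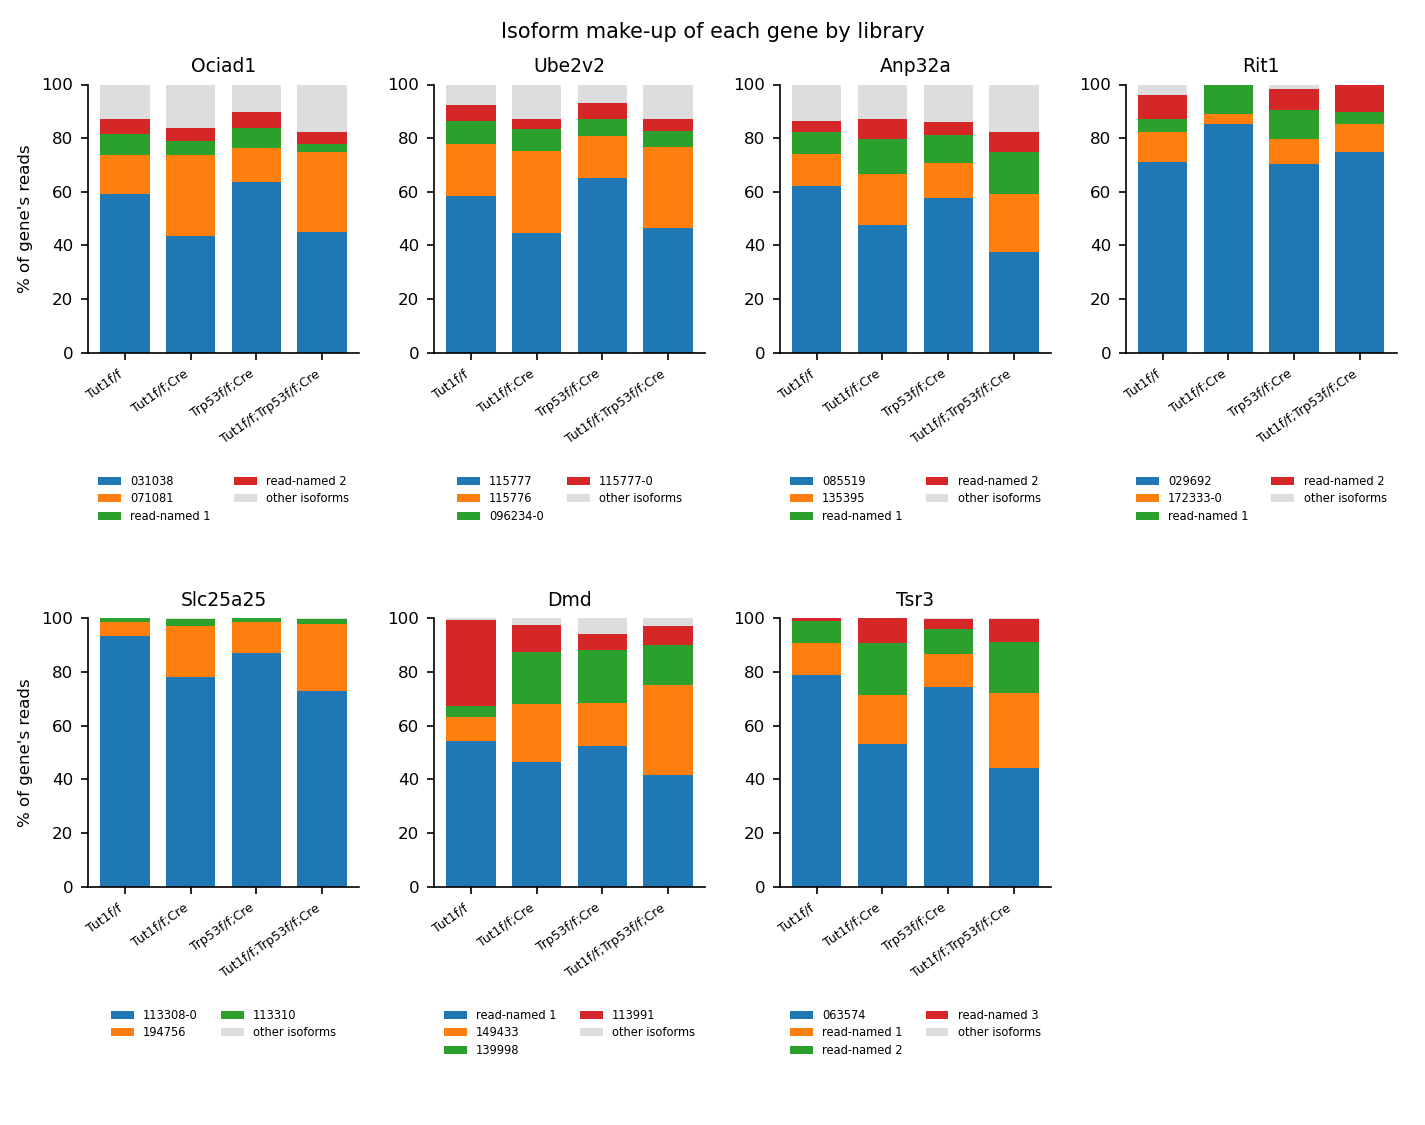
Isoform make-up of each gene in the 4 libraries, as stacked percentages of the gene's reads that start at 0 and sum to 100. The 4 most read isoforms are coloured (numbers are the last digits of the ENSMUST identifier) and the rest are grey. In Dmd the coding isoform ENSMUST00000113991 goes from 32.2% in Tut1f/f to between 6.1% and 9.8% in the libraries with Cre.

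Donors of the switched or unspliced introns could be read from the annotated transcripts in 5 cases. They are shown because U6 snRNA pairs with these bases. Each has 12 exon bases in lower case and the first 6 intron bases in capitals (GRCm38).
Ociad1 exon 7, main isoform (chr5:73306742-73306759, plus strand): atattgcccaagGTAGAA
Ociad1 exon 7, extended (chr5:73306787-73306804, plus strand): ttatggtccaacGTATGT
Slc25a25 exon 1 (chr2:32430523-32430540, minus strand): cagtttcctaagGTAACA
Dmd exon 9, read through by ENSMUST00000149433 (chrX:85144154-85144171, plus strand): caacatggaaacGTGAGT
Dmd exon 7, read through by ENSMUST00000132333 (chrX:85139483-85139500, plus strand): cattggattcagGTATTA

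None of these donors begins GTAAGT, which 9.84% of 33847 donors readable in the same way carried, and the Dmd exon 9 donor begins GTGAGT, as did 12.4%. The letters GTNNGN stood in 2 of the 5, against 72.8% of all readable donors, and GTNAGT in 1, against 24.3%. The donors differ in role. The extended Ociad1 donor belongs to the isoform that was higher in the libraries labelled as lacking Tut1. ENSMUST00000132333, which reads through the Dmd exon 7 donor, did not follow these labels, with differences of 2.1 and -0.7 points. Only the transcribed strand was read, and a donor counts as readable where another annotated transcript of the gene runs through it, so these are a subset of all donors. With 5 donors from 3 genes this is a description of the letters, and whether it bears on the switches was not tested.

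Across all genes, 22439 isoforms had 10 or more reads in genes with 20 or more reads in each library. Between TKO and the control, 7.60% of them were at least 10 points higher and 8.36% at least 10 points lower. Between the libraries labelled DKO and PKO these shares were 4.57% and 5.19%. Usage was at least 10 points higher in both comparisons for 0.726% and at least 10 points lower in both for 0.829%, together 1.56% or 349 isoforms, which belonged to 4.79% of 5705 genes. For 3.01% it moved by as much in opposite directions. All 45 isoforms of the 7 genes were in this set, and 9 isoforms of 6 genes moved the same way by at least 10 points, 4 of them upwards and 5 downwards. The rule chose the genes on these values, so nothing is read from that count. Rit1 was the gene without such an isoform. Of 2050 transcripts annotated as retained intron, 1.66% were at least 10 points higher in both comparisons, and ENSMUST00000194756 of Slc25a25 and ENSMUST00000149433 of Dmd were among them.

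**Figure D4:**
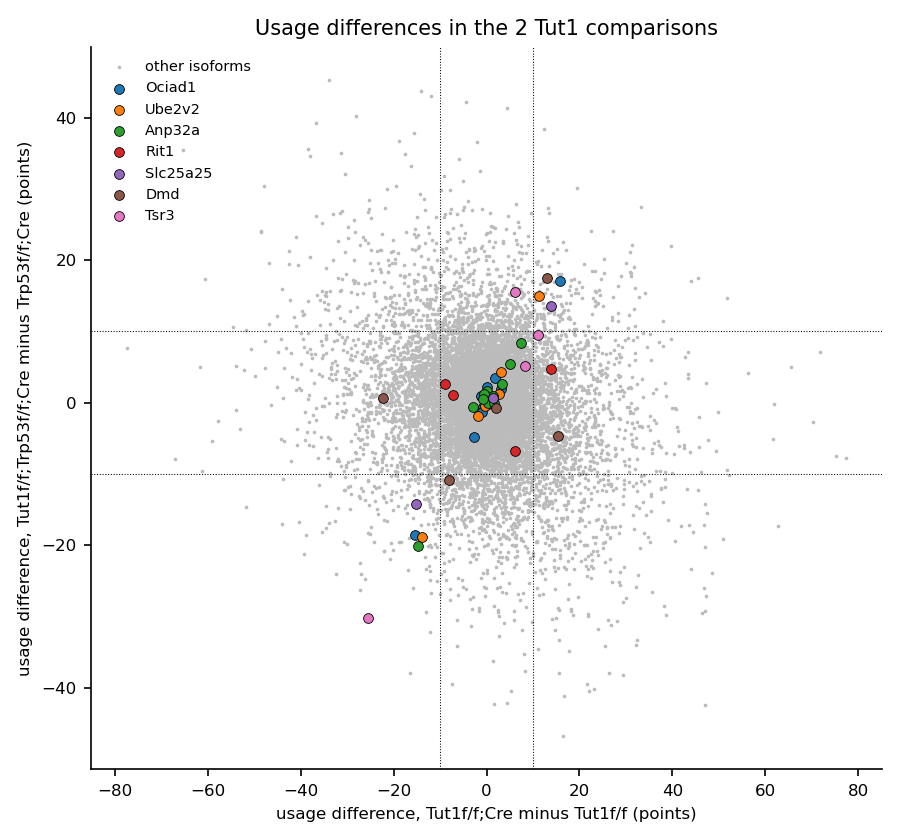
Usage difference in percentage points of every isoform in the 2 Tut1 comparisons, Tut1f/f;Cre minus Tut1f/f on the horizontal axis and Tut1f/f;Trp53f/f;Cre minus Trp53f/f;Cre on the vertical. Grey points are all other isoforms, coloured points those of the 7 genes, and dotted lines mark 10 points. The Tsr3 isoform at -25.5 and -30.2 lies farthest from the origin among the lead isoforms.

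The contrast of Trp53 status was not used to choose the genes. The library labelled PKO differed from the control by at least 10 points for 16.0% of all isoforms (7.80% higher and 8.18% lower) and for 2 of the 45 isoforms of these genes, both of Dmd, 1 in each direction. The library labelled DKO differed from TKO by that much for 8.55% of all isoforms (4.11% higher and 4.43% lower) and for 4 of the 45, 2 in each direction. For the lead isoform of Ociad1 the differences in these pairs were -1.9 points (-5.9 to 2.5) and -0.6 points (-6.6 to 5.4). For Ube2v2 they were 6.8 points (-0.6 to 14.0) and 1.9 points (-6.2 to 10.1). The intervals of both genes thus included 0 in each pair. For Anp32a the differences were -4.7 points (-9.6 to 0.36) and -10.1 points (-15.5 to -4.5), and for Dmd 7.0 points (0.45 to 13.1) and 11.6 points (3.6 to 19.5). For Slc25a25 they were -6.1 points (-12.1 to 0.3) and -5.1 points (-14.5 to 4.1), and for Tsr3 -4.3 points (-15.2 to 6.4) and -8.9 points (-23.9 to 6.6). Rit1 gave -0.97 points (-15.4 to 12.6) and -10.2 points (-25.7 to 5.3).

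Across the 4 libraries, none of the 45 isoforms was called for Trp53 status (edgeR diffSpliceDGE, Tut1 status as covariate, 1 residual degree of freedom), and none of all 25395 isoforms tested was, a share of 0%. At an unadjusted p under 0.05 there were 157 of all isoforms and 0 of these genes. The smallest unadjusted p among them was 0.141, for the coding Dmd isoform ENSMUST00000113991, whose usage was 14.6 points lower on average in the libraries labelled as lacking Trp53. A p above the threshold does not show equal usage.

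The log2 ratios of the whole-gene level had opposite signs in the Tut1 comparisons for 4 of the 7 genes and the same sign for 3, Rit1, Dmd and Tsr3. Ociad1 stood at 188 CPM in the control, 130 in TKO, 107 in the library labelled PKO and 170 in that labelled DKO. The log2 ratios were -0.53 (exact 95% interval -0.71 to -0.35) and 0.67 (0.47 to 0.86), opposite in sign. Anp32a had 173, 210, 223 and 195 CPM and log2 ratios of 0.27 (0.12 to 0.43) and -0.19 (-0.35 to -0.03).

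Ube2v2 lay between 84.4 and 102.01 CPM, with log2 ratios of -0.14 (-0.37 to 0.09) and 0.27 (0.04 to 0.51). Slc25a25 stood at 38.0, 62.1, 60.8 and 49.1 CPM, with log2 ratios of 0.71 (0.39 to 1.03) and -0.31 (-0.62 to 0.00). It was lowest in the control. Dmd stood at 43.0, 77.6, 70.9 and 80.3 CPM, with log2 ratios of 0.85 (0.56 to 1.14) and 0.18 (-0.08 to 0.44). Rit1 had 25.4, 17.8, 18.4 and 16.3 CPM and log2 ratios of -0.51 (-1.01 to -0.02) and -0.18 (-0.75 to 0.39). Tsr3 had 33.2, 25.4, 30.4 and 26.8 CPM and log2 ratios of -0.38 (-0.81 to 0.03) and -0.18 (-0.62 to 0.25). Both libraries labelled as lacking Tut1 were thus the highest for Dmd and the lowest for Rit1 and Tsr3, though in the second comparison each of these intervals included 0. None of the 7 genes differed by 2-fold between the libraries of either Tut1 comparison, where 27.0% and 8.78% of all genes did. In bulk cells, fewer cells with a transcript and less transcript per cell cannot be told apart.

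**Figure D5:**
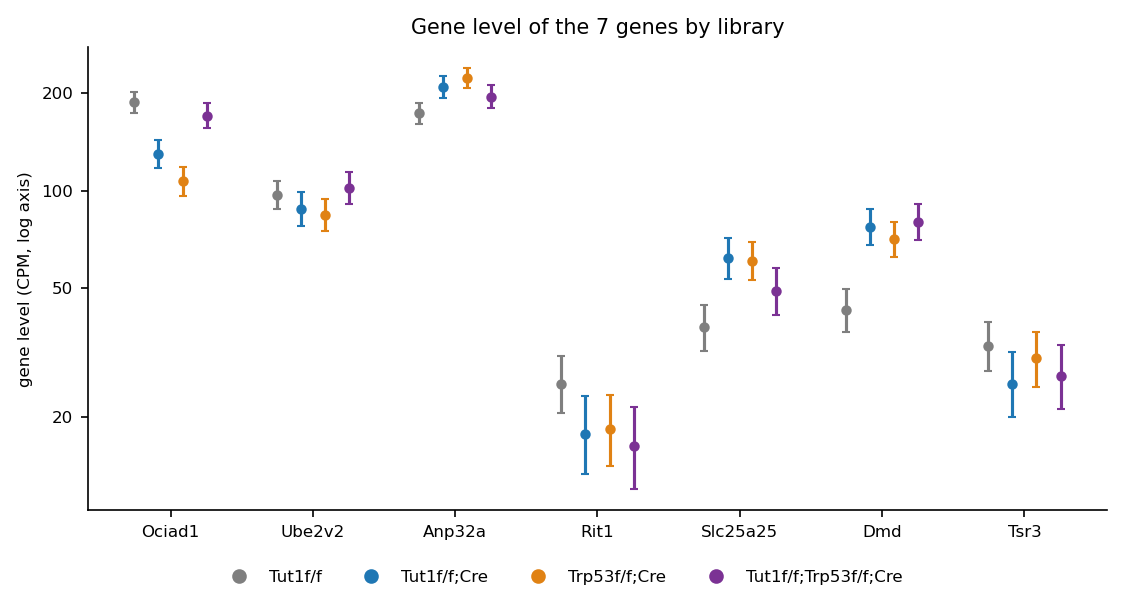
Gene level of the 7 genes in the 4 libraries (CPM, scaled by TMM, log axis), 1 point per library with its exact Poisson 95% interval. Ociad1 goes from 188 to 130 CPM in the first Tut1 comparison and from 107 to 170 in the second.

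Trp53 status gave no call among the 7 genes with edgeR's quasi-likelihood test (Benjamini-Hochberg FDR under 0.05 and at least 2-fold, 0.0102% of 9848 genes called) or with DESeq2 (0.0102%). The single gene called among all, named after its value was seen, was the ribosomal protein pseudogene Rpl3-ps1. Trp53 itself was not called by edgeR's test, at a log2 fold change of -2.81 (FDR 0.066). A gene without a call is therefore not shown to be unchanged. Fitted log2 fold changes ran from -0.30 (SE 0.58) for Rit1 to 0.38 (SE 0.50) for Dmd, which was -0.039 with the control library and the Tut1 term left out. The smallest unadjusted p was 0.447 with edgeR and 0.466 with DESeq2, both above 0.05.

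Partners and paralogs of the 7 genes were examined by gene level. Of the 20 genes listed, 17 passed the filter on low counts, and none was called for Trp53 or Tut1 status by edgeR or DESeq2. None had an unadjusted p under 0.05 either. For Tut1 status neither tool called a gene among 9848 (0%), with 185 unadjusted p values under 0.05 in edgeR and 69 in DESeq2.

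Tsr1, Utrn and Anp32b differed more between TKO and the control than any of the 7 genes. Tsr1, a maturation factor of the small ribosomal subunit, had 83 reads in the control, 11 in TKO, 15 in the library labelled PKO and 45 in that labelled DKO. It was thus low in the middle pair, which is the pair with Xist reads. Anp32b, a paralog of Anp32a, had 87.2, 162, 192 and 138 CPM. Emg1, the methyltransferase that acts on the base Tsr3 later completes, was between 193 and 284 CPM. Ube2n, the partner of Ube2v2, was between 170 and 263 CPM, and Ube2v1, its paralog, between 97.3 and 209 CPM. Utrn, the dystrophin paralog, had 13.6 CPM in the control and 21.4 to 31.0 in the others, and Dag1, the dystroglycan gene, 93.5 to 122 CPM. Lztr1, the adaptor through which Rit1 is degraded, was between 41.0 and 52.3 CPM.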

How the data were processed

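Per the labels, total RNA was made into Nanopore libraries by PCR of cDNA, 1 library per genotype, on genome build mm10. The authors deposited 1 table of whole-number read counts per isoform, not normalized, with 255164 entries. For other long-read libraries the study names minimap2 and FLAIR. The tools and filters for this table are not given in the sources used here. Entries that named no gene (17.2% to 30.2% of a library's reads) were left out of totals and tests. Symbols, exons and sequences came from GENCODE M21 (GRCm38). Whether reads were counted by strand or split between near-identical copies is not stated.

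Isoform counts were summed per gene, and CPM used TMM factors (edgeR 4.0.16, R 4.3.3). Trp53 status was tested in an additive model with Tut1 status, by edgeR's quasi-likelihood test on 9848 genes after its default filter, by diffSpliceDGE on isoforms with 10 or more reads, and by DESeq2 1.42.0 as an alternative. The fits were also run on simulated counts with planted changes. The gene simulation used a fixed spread between libraries and the isoform simulation no spread in shares, so neither measures power in these data. The named genes were the 7 members, a list of partners, the targets and sex-linked genes. The lead isoform of a gene is the one that moved the same way in both Tut1 comparisons with the largest smaller difference. Members and lists were chosen with earlier results of these data known.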

Additional observations from a re-analysis of the deposited data

Results flagged for a closer look

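The gene level of Ociad1 moved in opposite directions in the Tut1 comparisons, with a log2 ratio of -0.53 for TKO against the control and 0.67 for DKO against PKO. Anp32a did so in the reverse order, at 0.27 and -0.19. In both genes the exact counting intervals lay on opposite sides of 0, and the difference between the comparisons was not tested, since each rests on 1 library per side.

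Entries that name only a chromosome position enter no comparison above. Inside Dmd, Slc25a25, Ube2v2 and Rit1 their exact interval in every library with Cre lay above that of the control. Inside Ociad1 they were also higher in each, at 5.78 CPM in the control against 15.8, 9.47 and 16.9. The same held inside Anp32a, at 2.51 against 4.62, 7.75 and 6.78 CPM, and Tsr3 held no such entry. How many genes outside the 7 show this was not counted. Inside Dmd they summed to 35.7 CPM in the control, 128 in TKO, 104 in the library labelled PKO and 82.4 in that labelled DKO. Inside Slc25a25 they were 11.1, 33.7, 27.6 and 29.5 CPM, inside Ube2v2 9.05, 22.1, 26.4 and 29.5 CPM, and inside Rit1 4.53, 22.8, 10.9 and 19.3 CPM. Strand and exons of these entries are not given, and the share of all reads without a gene was likewise lowest in the control, at 17.2% against 27.3% to 30.2%.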

How the results depend on the processing

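Of 49 recomputed differences of the 7 lead isoforms, 1 reversed its sign and 3 lay outside the interval of the reported value. With only Ensembl-named isoforms in the total, the second Rit1 difference was -0.43 points, the first Anp32a difference -9.7 points, the first Dmd difference 21.2 points, and both Tsr3 differences 0 points, because Tsr3 then has a single isoform. Set against the control instead of the library labelled PKO, the library labelled DKO gave 7 differences within their intervals. A minimum of 20 points left 18 of the 349 isoforms of all genes and 1 of the 9 of these genes, and a minimum of 50 reads per gene left 138 and 9. For Trp53 status the genes called among all were 1 as reported, 2 (Rpl3-ps1 and CT010467.1) without the filter on low counts and 15 with neither the control library nor the Tut1 term in the model. That last setting sets the single TKO library against 2 others and assumes that it varies as they do. Calls among the 7 genes were 0 under each setting. The isoform test called none under any setting, and with that library and term left out 1 of the 45 isoforms, of Rit1 and named by a read, had an unadjusted p under 0.05, against 434 of 25395 over all genes. Log2 fold changes that were not called changed sign: with the control library and the Tut1 term both left out Ociad1 was 0.089, Anp32a -0.0019, Slc25a25 -0.17, Dmd -0.039 and Tsr3 0.17, and Ube2v2 was -0.00045 with DESeq2 and -0.0087 with RLE scaling. No paired analysis was possible because each genotype has 1 library.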
